A study of Mus musculus with 3 samples.

Results

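The DNA replication and repair genes are a set of 47 named mouse genes whose products start S phase, license and unwind origins, copy DNA, supply nucleotides, repair lesions and rebuild chromatin behind the fork. A gene was represented by a probe set annotated to exactly 1 symbol, and where several existed by the one with the highest mean log2 signal. On that rule 43 of the 47 genes were represented, among 7842 genes represented in all. No signal of the other 4 (Mcm6, Pole, Tyms and Msh6) was analysed here. RNA of cultured mouse dermal fibroblasts was hybridised to Affymetrix expression arrays, and the deposited table holds 1 column for each of 3 genotypes. FGFR3Act cells came from mice labelled Fgfr3G374Rneo-, in which the receptor tyrosine kinase Fgfr3 carries G374R and is active without ligand. FGFR3KO cells came from mice labelled FGFR3G374Rneo+ and lack a functional receptor, so both mutant groups derive from a G374R allele. The FGFR3WT mice were wild type, strain Bl6. The cells of the 3 groups were kept in fibroblast growth medium with no treatment. The sources used here do not state zygosity, age, passage, density or whether wild-type mice were littermates. The series states n = 3 for each group, without saying how its 1 column relates to them. With 1 column a group there is no error between replicates, no test and no p-value, and each difference below is one between arrays.

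Replication begins when the origin recognition complex and Cdc6 load the Mcm2 to Mcm7 helicase ring onto DNA in G1. Cyclin E with Cdk2, and the E2F transcription factors, then open S phase, in which Cdc45 and other factors activate the helicase and the DNA polymerases copy each strand around the sliding clamp PCNA. Many of these genes are E2F targets, transcribed late in G1 and in S phase, so their mRNA is scarce in resting fibroblasts and abundant in dividing ones. In RNA from a whole culture, fewer cells in a stage of the cycle and less RNA per cell cannot be told apart.

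The column medians were 212 in FGFR3Act, 209 in FGFR3KO and 214 in FGFR3WT cells in linear MAS5 signal. Signals below a floor were raised to it, because low MAS5 values are noisy. The floor, the 40th percentile of each array, lay at 123 in FGFR3Act, 122 in FGFR3KO and 121 in FGFR3WT cells. The 14 fibroblast markers on the array were above it on each of the 3 arrays. Their summed signal was largest in FGFR3KO cells (90189), with 65066 in FGFR3WT and 61215 in FGFR3Act cells. On FGFR3Act against FGFR3KO their median log2 difference was -0.36. Of the 14, 10 were lower on FGFR3Act, 6 of them by 1.5-fold or more, and 4 higher, 1 by as much. Of the 5297 genes above the floor on either array, 53.2% were lower, 20.1% by 1.5-fold or more, and 18.5% were higher by as much. Against FGFR3WT the medians were -0.18 on FGFR3Act and 0.11 on FGFR3KO. Of 20 macrophage and leukocyte markers, 18 exceeded the floor in FGFR3Act cells, 1 in FGFR3KO cells and 1 in FGFR3WT cells. The summed signals of these markers were 45578, 1414 and 1247 in that order. Among these markers, Lyz2 (7037, 48.2 and 51.4) and Csf1r (1446, 90.2 and 73.8) were above the floor on FGFR3Act alone. Ptprc (29.8, 9.94 and 28.9) and Itgam (35.2, 7.18 and 5.98) were below the floor on each array. Of 6 other marker lists (keratinocyte, endothelial, melanocyte, mast cell, adipocyte and skeletal muscle), 0 to 3 genes were above the floor on an array. The part of macrophages in the differences below was not tested. The 3′ to 5′ ratio of the beta-actin controls was 1.44 in FGFR3Act, 1.82 in FGFR3KO and 1.64 in FGFR3WT cells. That of the 18S rRNA controls was 4.78 in FGFR3Act, 2.13 in FGFR3KO and 2.13 in FGFR3WT cells, and the part of RNA quality in the differences was not tested.

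Most replication and repair genes had their highest signal on FGFR3KO and their lowest on FGFR3Act. Among the 25 members above the floor on all 3 arrays, 22 were highest on FGFR3KO, 2 on FGFR3Act and 1 on FGFR3WT, against 37.2%, 31.5% and 31.3% of the 4503 genes measured so. Of the same 25 members, 20 were lowest on FGFR3Act, 0 on FGFR3KO and 5 on FGFR3WT, against 42.3%, 36.5% and 21.3% of those genes. A further 10 members were above the floor on 1 or 2 arrays. The remaining 8 (Ccne2, Orc1, Mcm10, Rfc4, Dut, Brca1, Hells and Nasp) were below it on each array, with signals between 2.31 for Ccne2 on FGFR3WT and 115 for Brca1 on FGFR3KO, and their differences were not read.

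**Figure D1:**
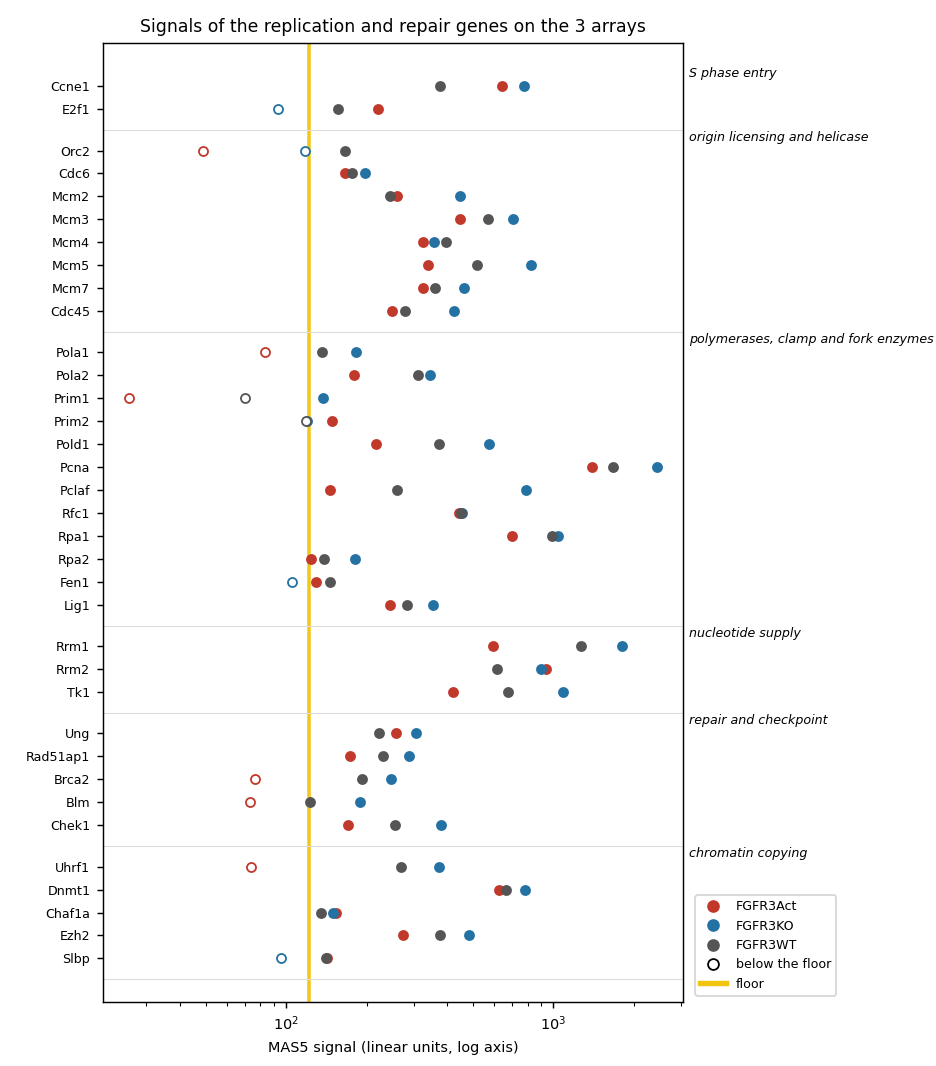
MAS5 signals (horizontal log axis, linear units) of the 35 replication and repair genes above the floor on at least 1 array, in rows grouped by role. Each gene has 1 point per array (red FGFR3Act, blue FGFR3KO, grey FGFR3WT), open where the signal is below the floor drawn in yellow, and blue is the rightmost point for 27 of the 35 genes, against 37.3% of all genes above the floor on at least 1 array.

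The 3 pairs of arrays gave the following counts at 1.5-fold, over the 34 members above the floor on at least 1 array of a pair. On FGFR3Act, 8 of 34 were lower by 1.5-fold or more and 2 higher by as much than on FGFR3WT, against 16.3% and 11.4% of 5244 genes compared. The median log2 difference was -0.19, against -0.07 for those genes. Below FGFR3WT by any amount were 26 of 34 (55.7% of all genes), and by 2-fold or more 2 (4.79%), Rrm1 and Uhrf1. On FGFR3KO, 8 of 34 were higher by 1.5-fold or more and 0 lower by as much than on FGFR3WT, against 10.3% and 13.7% of 5184 genes, with medians of 0.36 and -0.02. Above FGFR3WT by any amount were 29 of 34 (48.5% of all genes), and by 2-fold or more 2 (1.93%), Ccne1 and Pclaf. Between the mutants, 16 of 34 were lower by 1.5-fold or more and 1 higher by as much on FGFR3Act than on FGFR3KO, against 20.1% and 18.5% of 5297 genes, with medians of -0.57 and -0.05. Below FGFR3KO by any amount were 28 of 34 (53.2%), and by 2-fold or more 8 (7.49%). These pairs share arrays and are not independent of each other. A gene high on 1 array of a pair can enter through that array alone, so the medians were also taken over members above the floor on both arrays. They were then -0.19 (28 members) for FGFR3Act against FGFR3WT, 0.43 (29 members) for FGFR3KO against FGFR3WT and -0.65 (25 members) for FGFR3Act against FGFR3KO. Over the 43 members on the array, with a difference of 0 for genes below the floor on both arrays, they were -0.15, 0.31 and -0.33.

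Because E2F is known to drive many replication genes, the members' promoters were read for E2F motifs. RefSeq promoter windows of build GRCm38.p6, from 250 bases before to 50 after an annotated start, were available for 43 of the 47 genes. They were searched on both strands for TTTCCCGC, TTTGGCGC and TTTCGCGC, and matches on opposite strands can overlap. At least 1 match was found for 16 of these 43 members (37.2%), against 2.12% of the 27025 genes with a window and 3.78% of the 6269 genes on the array with a window. The 16 were Orc1, Cdc6, Mcm3, Mcm5, Mcm6, Mcm7, Pola1, Pold1, Pclaf, Lig1, Msh6, Brca2, Uhrf1, Dnmt1, Hells and Ezh2. Mcm6 and Msh6 have no signal here, so the 43 members with a window are not the 43 members on the array. Of members with both a window and a signal, 14 held a match and 26 did not. A match is a stretch of letters and not a bound site. The sequences below belong to the 6 genes with a match that lay furthest below FGFR3KO on FGFR3Act, and are printed 5′ to 3′ on the gene's strand with the match in capitals. Those of Pclaf (chr9:65890133-65890332, plus strand), Uhrf1 (the second of its 2 annotated starts, chr17:56304123-56304322, plus strand), Mcm5 (chr8:75109319-75109518, plus strand) and Brca2 (chr5:150522431-150522630, plus strand) run from base -190 to base 10 around the start. For Pold1 (chr7:44548766-44548795, minus strand) and Ezh2 (chr6:47595009-47595038, minus strand), whose match lies after the start, 30 bases around it are given.
Pclaf: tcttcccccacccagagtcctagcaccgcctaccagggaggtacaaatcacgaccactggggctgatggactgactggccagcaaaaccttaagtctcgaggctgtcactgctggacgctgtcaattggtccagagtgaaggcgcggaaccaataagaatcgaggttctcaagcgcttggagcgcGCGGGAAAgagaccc
Uhrf1: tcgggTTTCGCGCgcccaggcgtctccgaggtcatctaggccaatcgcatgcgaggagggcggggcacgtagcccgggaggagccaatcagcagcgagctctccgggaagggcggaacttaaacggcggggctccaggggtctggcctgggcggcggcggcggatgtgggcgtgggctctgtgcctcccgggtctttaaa
Mcm5: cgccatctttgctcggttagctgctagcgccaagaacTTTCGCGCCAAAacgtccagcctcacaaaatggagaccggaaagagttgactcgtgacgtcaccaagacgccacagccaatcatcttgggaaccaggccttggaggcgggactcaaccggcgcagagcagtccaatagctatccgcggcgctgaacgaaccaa
Brca2: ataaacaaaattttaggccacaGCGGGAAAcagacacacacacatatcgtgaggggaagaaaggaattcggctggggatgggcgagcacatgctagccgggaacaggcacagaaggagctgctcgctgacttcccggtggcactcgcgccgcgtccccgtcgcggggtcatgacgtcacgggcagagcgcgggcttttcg
Pold1: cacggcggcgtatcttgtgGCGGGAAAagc
Ezh2: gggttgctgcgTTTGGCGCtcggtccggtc
The match begins at base -5 in Pclaf, -185 in Uhrf1, -168 in Brca2, 40 in Pold1 and 4 in Ezh2, counted from the start as base 1 with no base 0. In Mcm5 a match on the gene's strand (TTTCGCGC, from -153) and a match on the opposite strand (from -149) overlap.

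**Figure D2:**
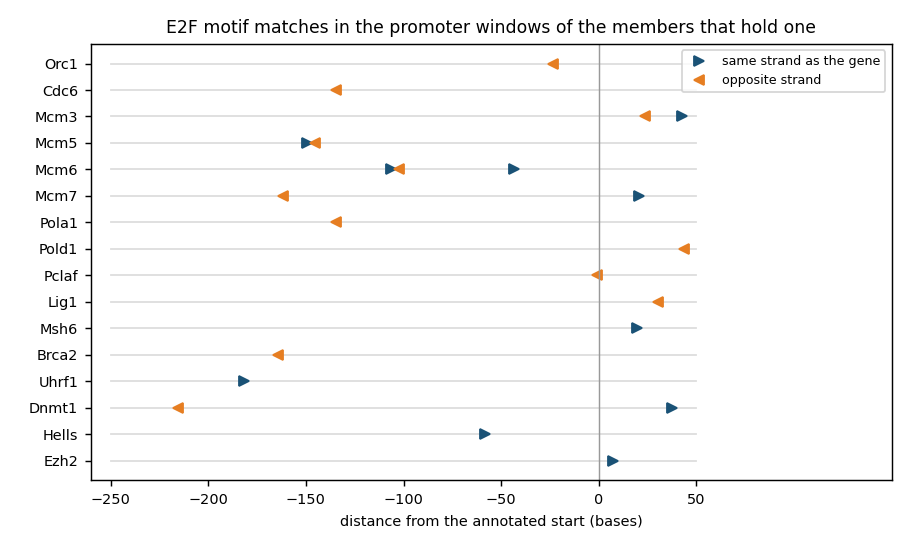
Positions of the E2F motif matches (horizontal axis, bases from the annotated start) in the promoter windows of the 16 members that hold one. Triangles stand at the centre of a match and point right for a match on the gene's strand and left for the opposite strand, and the matches begin between base -219 in Dnmt1 and base 40 in Pold1.

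Members with and without a match were compared as a description. On FGFR3Act against FGFR3KO the 12 measured members with a match had a median log2 difference of -0.74 and lay between -2.43 and -0.25. Each of the 12 was thus lower, where 53.2% of all genes were. The 20 measured members without a match had a median of -0.56 and lay between -1.61 and 0.85. Lower by 1.5-fold or more were 7 of 12 with a match and 9 of 20 without, against 20.1% of all genes. Higher by as much were 0 and 1, against 18.5%. Against FGFR3WT, FGFR3Act gave medians of -0.40 with a match (12 members) and -0.16 without (20 members). FGFR3KO against FGFR3WT gave 0.36 (12 members) and 0.39 (21 members), and with the members below the floor on both arrays at 0 it gave 0.36 (14 members) and 0.17 (26 members). Counted in that way, FGFR3Act against FGFR3KO gave -0.61 (14 members) with a match and -0.21 (26 members) without.

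The 2 measured genes of S phase entry did not have their lowest signal on FGFR3Act. Cyclin E1 (Ccne1), which with Cdk2 starts S phase, had signals of 644 in FGFR3Act, 777 in FGFR3KO and 376 in FGFR3WT cells. It was higher on both mutant arrays than on FGFR3WT, by 1.71-fold on FGFR3Act and 2.07-fold on FGFR3KO. E2f1, the transcription factor that activates many replication genes, had 219.8 in FGFR3Act, 92.9 in FGFR3KO and 157 in FGFR3WT cells. Its order was the opposite of that of most members, with FGFR3Act 1.40-fold above FGFR3WT and FGFR3KO, below the floor, at least 1.29-fold under FGFR3WT. FGFR3Act stood at least 1.80-fold above FGFR3KO, the largest difference in that direction among the members compared. Cyclin E2 (Ccne2) was below the floor on each array.

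Origin licensing and helicase genes were lower on FGFR3Act than on FGFR3KO in each of the 7 members compared, 4 of them by 1.5-fold or more, where 53.2% of all genes were lower and 20.1% by 1.5-fold. The median log2 difference was -0.65. In the helicase ring, Mcm5 showed the widest spread, with 339 in FGFR3Act, 823 in FGFR3KO and 516 in FGFR3WT cells. FGFR3Act was 2.43-fold below FGFR3KO and 1.52-fold below FGFR3WT, and FGFR3KO was 1.60-fold above FGFR3WT. Mcm2 had 259 in FGFR3Act, 446 in FGFR3KO and 245 in FGFR3WT cells. It was thus 1.82-fold higher on FGFR3KO than on FGFR3WT and close to wild type (1.06-fold) on FGFR3Act. Mcm3 had 447 in FGFR3Act, 703 in FGFR3KO and 567 in FGFR3WT cells, and its second probe set gave 220.3, 495 and 316 in the same order. FGFR3Act lay below FGFR3KO by 1.57-fold on the first and at 0.445 times its signal on the second, so the 2 probe sets agreed in direction and differed in size. Mcm7 had 326 in FGFR3Act, 461 in FGFR3KO and 361 in FGFR3WT cells. Mcm4 had 324 in FGFR3Act, 359 in FGFR3KO and 398 in FGFR3WT cells, and was the ring subunit whose highest signal was on FGFR3WT, with differences of at most 1.23-fold. The ring was therefore uneven between its 5 measured subunits, from 1.11-fold lower for Mcm4 to 2.43-fold lower for Mcm5 on FGFR3Act than on FGFR3KO.

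The helicase activator Cdc45 had 249.5 in FGFR3Act, 424 in FGFR3KO and 278 in FGFR3WT cells. It followed Mcm2 in being 1.53-fold higher on FGFR3KO than on FGFR3WT and within 1.11-fold of FGFR3WT on FGFR3Act. Cdc6, the loading factor, had 166 in FGFR3Act, 197 in FGFR3KO and 176 in FGFR3WT cells, a spread of at most 1.19-fold. The origin recognition subunit Orc2 was above the floor on FGFR3WT alone (48.7 in FGFR3Act, 118 in FGFR3KO and 166 in FGFR3WT cells). It was at least 1.36-fold below FGFR3WT in both mutants. Orc1 and Mcm10 were below the floor on each array.

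Among the polymerase, clamp and fork genes, Pclaf had the widest difference between FGFR3Act and FGFR3KO. Pclaf encodes a small protein that binds PCNA, and its signals were 146 in FGFR3Act, 792 in FGFR3KO and 260.0 in FGFR3WT cells. FGFR3KO stood 3.04-fold above FGFR3WT, and FGFR3Act 1.78-fold below FGFR3WT and 5.40-fold below FGFR3KO. A second Pclaf probe set was below the floor on each array (26.0, 23.4 and 25.5). Averaging the log2 signals of both probe sets put Pclaf below the floor on FGFR3Act and FGFR3WT. The log2 differences were then bounds set by the floor, -0.15 or lower for FGFR3Act against FGFR3KO and 0.17 or higher for FGFR3KO against FGFR3WT. The Pclaf folds thus rest on the brighter probe set. The clamp itself, Pcna, had 1396 in FGFR3Act, 2438 in FGFR3KO and 1676 in FGFR3WT cells. Its order was the same as that of Pclaf, with a 1.75-fold lower signal on FGFR3Act than on FGFR3KO.

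Polymerase subunits and other fork enzymes followed this order to different degrees. Pold1, the catalytic subunit of polymerase delta, had 218 in FGFR3Act, 574 in FGFR3KO and 374 in FGFR3WT cells. FGFR3Act was 2.63-fold below FGFR3KO and 1.72-fold below FGFR3WT. Pola2, the regulatory subunit of polymerase alpha, had 179 in FGFR3Act, 345 in FGFR3KO and 312 in FGFR3WT cells, so that FGFR3Act stood apart (1.74-fold below FGFR3WT) while FGFR3KO was within 1.11-fold of FGFR3WT. The catalytic subunit Pola1 had 83.1 in FGFR3Act, below the floor, 183 in FGFR3KO and 136 in FGFR3WT cells. It was at least 1.49-fold below FGFR3KO in FGFR3Act cells. The single-strand DNA binding gene Rpa1 had 698 in FGFR3Act, 1036 in FGFR3KO and 988 in FGFR3WT cells, again with FGFR3Act apart from the other arrays. Its partner Rpa2 had 123 in FGFR3Act, barely above the floor, 181 in FGFR3KO and 138 in FGFR3WT cells. DNA ligase 1 (Lig1), which seals Okazaki fragments, had 244 in FGFR3Act, 356 in FGFR3KO and 283 in FGFR3WT cells. Both were about as far below FGFR3KO on FGFR3Act, by 1.47-fold and 1.46-fold.

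Other fork genes showed little difference or were near the floor. The clamp loader subunit Rfc1 had 443 in FGFR3Act, 454 in FGFR3KO and 449.9 in FGFR3WT cells, the smallest spread among the members above the floor on all 3 arrays. Its second probe set was below the floor on each array (24.3, 70.6 and 22.3). The mean of both was below the floor on FGFR3Act and FGFR3WT. It gave bounds of -0.55 or lower for FGFR3Act against FGFR3KO and 0.57 or higher for FGFR3KO against FGFR3WT. The flap endonuclease gene Fen1 had 129.6 in FGFR3Act, 106 in FGFR3KO and 146 in FGFR3WT cells, with FGFR3KO below the floor. The primase genes were above the floor on 1 array each. Prim1 had 25.9 in FGFR3Act, 138 in FGFR3KO and 69.9 in FGFR3WT cells. Prim2 had 149 in FGFR3Act, 119.6 in FGFR3KO and 118.5 in FGFR3WT cells. Rfc4 was below it on each array. Of the 12 members of this role compared between the mutants, 10 were lower on FGFR3Act, 4 of them by 1.5-fold or more, with a median of -0.56, where 53.2% of all genes were lower and 20.1% by 1.5-fold.

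Nucleotide supply genes split within a single enzyme. Ribonucleotide reductase makes deoxyribonucleotides from a large subunit, encoded by Rrm1, and a small subunit, encoded by Rrm2. Rrm1 had 593 in FGFR3Act, 1812 in FGFR3KO and 1264 in FGFR3WT cells. FGFR3Act was 3.06-fold below FGFR3KO and 2.13-fold below FGFR3WT. Rrm2 had 939.6 in FGFR3Act, 900.4 in FGFR3KO and 613 in FGFR3WT cells, so that FGFR3Act was 1.53-fold above FGFR3WT and within 1.04-fold of FGFR3KO. The subunits thus differed in opposite directions on FGFR3Act against FGFR3WT and in the same direction on FGFR3KO, where Rrm1 was 1.43-fold and Rrm2 1.47-fold above FGFR3WT. Thymidine kinase (Tk1), which salvages thymidine, had 422 in FGFR3Act, 1088 in FGFR3KO and 674 in FGFR3WT cells. It resembled Rrm1, at 2.58-fold below FGFR3KO and 1.60-fold below FGFR3WT on FGFR3Act. Dut, whose product removes dUTP, was below the floor on each array.

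The 5 repair and checkpoint genes compared were lower on FGFR3Act than on FGFR3KO, 4 of them by 1.5-fold or more, where 53.2% of all genes were lower and 20.1% by 1.5-fold. They were higher on FGFR3KO than on FGFR3WT, 1 of them by 1.5-fold or more, where 48.5% of all genes were higher and 10.3% by 1.5-fold. The medians were -0.73 and 0.46. The checkpoint kinase gene Chek1 had 171 in FGFR3Act, 380.2 in FGFR3KO and 254 in FGFR3WT cells. FGFR3Act and FGFR3KO lay about equally far from FGFR3WT, at 1.49-fold below and 1.49-fold above it. Brca2, which acts in homologous recombination, had 76.3 in FGFR3Act, below the floor, 246 in FGFR3KO and 192 in FGFR3WT cells. FGFR3Act was at least 2.01-fold below FGFR3KO and at least 1.56-fold below FGFR3WT. The helicase gene Blm had 73.3 in FGFR3Act, 189 in FGFR3KO and 123 in FGFR3WT cells. Blm was below the floor on FGFR3Act and barely above it on FGFR3WT, so its 1.54-fold higher signal on FGFR3KO than on FGFR3WT rests on a dim probe set. Ung, which removes uracil from DNA, had 258 in FGFR3Act, 307 in FGFR3KO and 223 in FGFR3WT cells. It was the repair gene measured above FGFR3WT on FGFR3Act, by 1.16-fold, and Brca1 was below the floor on each array.

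Genes that copy chromatin had a median of -0.33 over 5 members on FGFR3Act against FGFR3KO, which was 0 with no filter (7 members) and -0.58 with the floor at the 20th percentile (6 members). Uhrf1, which brings the maintenance methyltransferase to newly copied DNA, had the widest spread among them, with 73.8 in FGFR3Act, 373 in FGFR3KO and 268 in FGFR3WT cells. FGFR3Act, below the floor, was at least 3.05-fold under FGFR3KO and at least 2.19-fold under FGFR3WT. Dnmt1, the methyltransferase that Uhrf1 recruits, had 627 in FGFR3Act, 786 in FGFR3KO and 667 in FGFR3WT cells. Its spread of at most 1.25-fold was small beside that of Uhrf1. Ezh2, the catalytic subunit of Polycomb complex PRC2, had 273 in FGFR3Act, 484 in FGFR3KO and 376 in FGFR3WT cells, and was 1.77-fold lower on FGFR3Act than on FGFR3KO. The histone chaperone gene Chaf1a had 153 in FGFR3Act, 150.1 in FGFR3KO and 136 in FGFR3WT cells. The histone mRNA binding gene Slbp had 143 in FGFR3Act, 95.4 in FGFR3KO and 140.4 in FGFR3WT cells. Neither followed the order of Uhrf1 and Ezh2. Hells and Nasp were below the floor on each array.

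Set side by side, the roles had these medians on FGFR3Act against FGFR3KO: nucleotide supply -1.37 (3 members), repair and checkpoint -0.73 (5 members), licensing and helicase -0.65 (7 members), polymerases and fork -0.56 (12 members) and chromatin copying -0.33 (5 members). FGFR3Act against FGFR3WT gave -0.68 (3 members), -0.41 (5 members), -0.23 (8 members), -0.21 (11 members) and -0.09 (5 members) in the same order of roles, the last turning above 0 after quantile normalisation or cyclic loess. FGFR3KO against FGFR3WT gave 0.55, 0.46, 0.33, 0.33 and 0.24. With so few members in a role, no order of roles was read from them. Within nucleotide supply alone the values ran apart, with Rrm1 at -1.61 and Rrm2 at 0.06 on FGFR3Act against FGFR3KO.

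**Figure D3:**
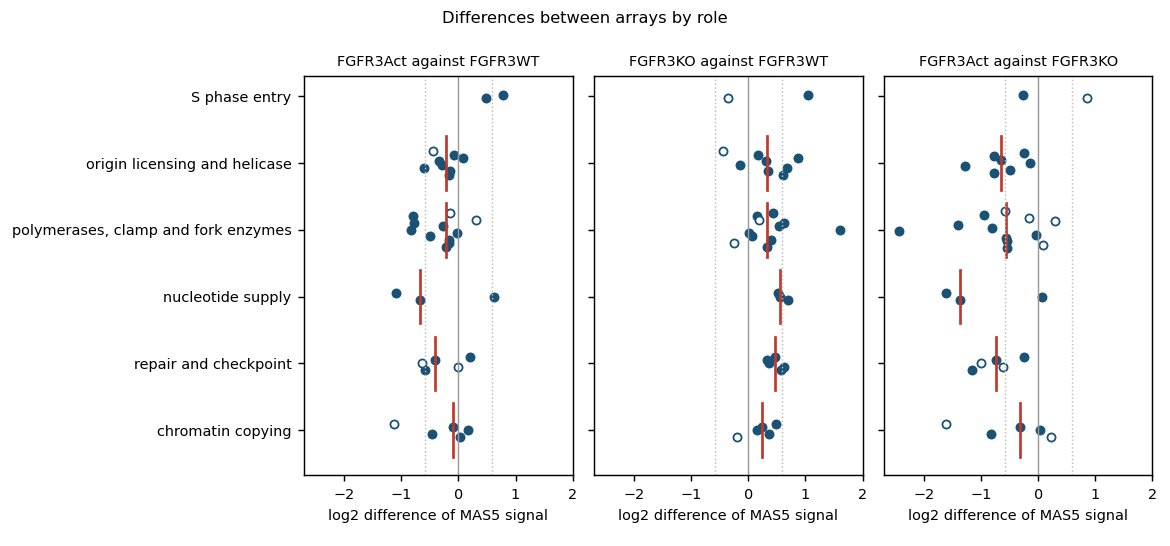
Log2 differences of MAS5 signal (horizontal axis) of single members by role in the 3 pairs of arrays, open where 1 array is below the floor and the difference is a bound. Red bars are medians of roles with at least 3 members compared, dotted lines mark 1.5-fold, and the points of most roles lie left of 0 on FGFR3Act and right of 0 on FGFR3KO against FGFR3WT.

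Genes of the same pathways that were not members were counted from 6 lists of related genes. Licensing and firing genes had 5 of 9 lower by 1.5-fold or more and 0 higher on FGFR3Act than on FGFR3KO, where 20.1% of all genes were lower. On FGFR3Act against FGFR3WT, 2 of 9 were lower, near the 16.3% of all genes, and 0 higher. Orc6, of the origin recognition complex, led them with 242 in FGFR3Act, 596 in FGFR3KO and 488 in FGFR3WT cells. On FGFR3KO against FGFR3WT the list had 1 of 9 higher, the licensing inhibitor gene Gmnn (1.58-fold), and 1 lower, Orc4 (1.72-fold). These counts were near the 10.3% and 13.7% of all genes, and Gmnn was barely above the floor on FGFR3WT. Polymerase and fork genes had 5 of 14 lower by 1.5-fold or more and 0 higher on FGFR3Act than on FGFR3KO, where 20.1% of all genes were lower. On FGFR3KO against FGFR3WT, 2 of 14 were higher, near the 10.3% of all genes, the topoisomerase gene Top2a (1.57-fold) and the clamp loader gene Rfc3 (1.53-fold). Pold2, which pairs with Pold1 in polymerase delta, had 428 in FGFR3Act, 1240.1 in FGFR3KO and 923 in FGFR3WT cells. Its fold of 2.90 below FGFR3KO on FGFR3Act lay near the 2.63 of Pold1. Top2a was at least 3.26-fold below FGFR3KO in FGFR3Act cells.

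Chromatin genes beyond the members were more often higher than lower on FGFR3KO against FGFR3WT. Of 13 compared, 6 were higher by 1.5-fold or more and 1 lower by as much on FGFR3KO than on FGFR3WT, against 10.3% and 13.7% of all genes. On FGFR3Act against FGFR3KO 8 were lower and 1 higher, against 20.1% and 18.5% of all genes. Hat1, which acetylates newly made histone H4, had 764 in FGFR3Act, 3502 in FGFR3KO and 1398 in FGFR3WT cells. It was 2.50-fold above FGFR3WT on FGFR3KO and 1.83-fold below FGFR3WT on FGFR3Act. The Hat1 probe set carries the suffix f, the platform's mark for a family of similar sequences. Chaf1b, the partner of Chaf1a in chromatin assembly factor 1, had 134 in FGFR3Act, 317 in FGFR3KO and 150.4 in FGFR3WT cells, 2.11-fold higher on FGFR3KO than on FGFR3WT, where Chaf1a was 1.11-fold higher. The Polycomb subunits did not share an order. Suz12 had 896 in FGFR3Act, 348 in FGFR3KO and 398 in FGFR3WT cells, the reverse of Ezh2. Eed was 1.77-fold lower on FGFR3KO than on FGFR3WT.

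Repair genes beyond the members had 6 of 22 lower by 1.5-fold or more and 0 higher on FGFR3Act than on FGFR3WT, against 16.3% and 11.4% of all genes, with a median of -0.37. On FGFR3KO against FGFR3WT, 5 of 23 were lower and 1 higher at that size, against 13.7% and 10.3% of all genes. By any amount 14 of 23 were higher, where 48.5% of all genes were, and the median was 0.11. Between the mutants, 5 of 22 were lower on FGFR3Act than on FGFR3KO by 1.5-fold or more, near the 20.1% of all genes. By as much 0 were higher, against 18.5% of all genes, and the median was -0.28. Fancc, of the Fanconi anaemia core complex, had 155 in FGFR3Act, 151 in FGFR3KO and 656 in FGFR3WT cells, low on both mutant arrays alike. The poly(ADP-ribose) polymerase genes resembled the members, with Parp2 at 533 in FGFR3Act, 1075 in FGFR3KO and 939.5 in FGFR3WT cells, and Parp1 at least 2.27-fold below FGFR3KO in FGFR3Act cells. The excision repair genes Ercc1 and Ercc3 differed on FGFR3KO in opposite directions, 1.70-fold above and 2.04-fold below FGFR3WT.

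Nucleotide metabolism genes beyond the members had no common direction. On FGFR3Act 4 of 15 were lower by 1.5-fold or more and 5 higher by as much than on FGFR3KO, against 20.1% and 18.5% of all genes, with a median of -0.24. Cad, which starts pyrimidine synthesis, was 1.90-fold lower, while the adenosine kinase gene Adk was 2.13-fold and the deoxycytidine kinase gene Dck 1.88-fold higher. Adk and Dck were read from probe sets with the same suffix f as that of Hat1. On FGFR3KO against FGFR3WT, Samhd1, which breaks down deoxyribonucleotides, was 2.01-fold and the purine synthesis gene Gart 1.66-fold higher. At 1.5-fold 4 of 15 were lower in that pair, against 13.7% of all genes. On FGFR3Act against FGFR3WT, the pyrimidine synthesis gene Ctps was 1.62-fold higher. At 1.5-fold 2 of 15 were lower there, near the 16.3% of all genes. Of the G1/S regulators, 3 of 8 were lower by 1.5-fold or more and 0 higher on FGFR3Act than on FGFR3KO, where 20.1% of all genes were lower. Cyclin A2 (Ccna2), which acts in S phase and G2, had 463 in FGFR3Act, 1321 in FGFR3KO and 932 in FGFR3WT cells, and the atypical factor E2f8 was at least 1.80-fold below FGFR3KO in FGFR3Act cells.

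**Figure D4:**
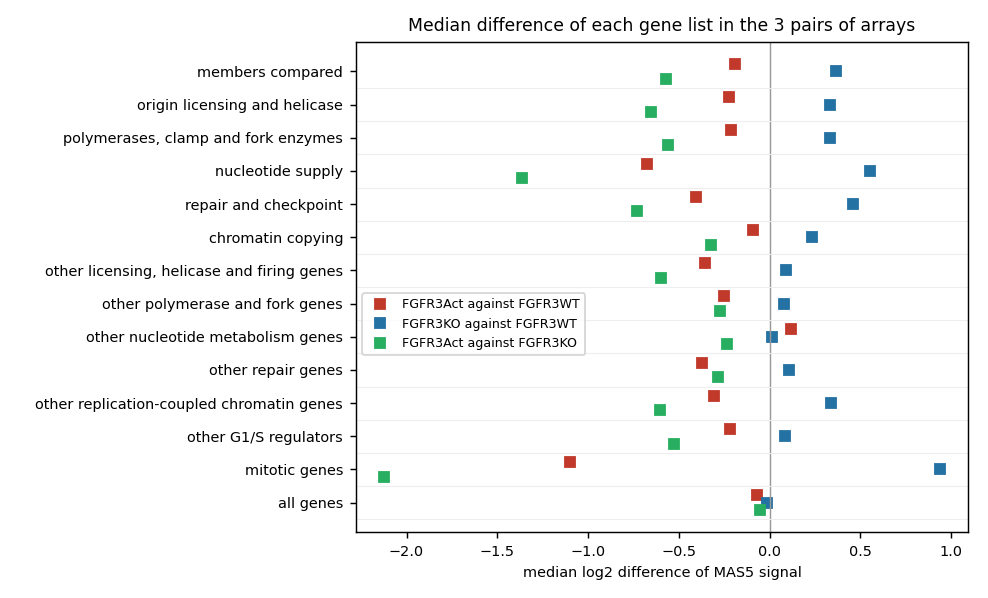
Median log2 difference of MAS5 signal (horizontal axis) of the members, of 5 of their roles, of 7 lists of other genes and of all genes compared, with 1 square per pair of arrays. The members lie at -0.19 for FGFR3Act against FGFR3WT, 0.36 for FGFR3KO against FGFR3WT and -0.57 for FGFR3Act against FGFR3KO, between all genes and the mitotic genes in each pair.

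Mitotic genes, which act after replication is complete, lay further from wild type in the same directions. Their median log2 difference was -1.10 over 25 genes on FGFR3Act against FGFR3WT, where the members had -0.19. It was 0.94 over 26 genes on FGFR3KO against FGFR3WT, where the members had 0.36. Between FGFR3Act and FGFR3KO it was -2.13 over 26 genes, against -0.57 for the members. The mitotic difference nearest 0 in that pair was -1.14 or lower, a bound set by the floor. Over the 14 mitotic genes above the floor on both arrays it was -1.31. Of the members, 6 of 34 had a difference above 0, where 46.8% of all genes had. On FGFR3Act against FGFR3WT, 11 of the 25 mitotic genes entered as bounds, with 1 array below the floor, against 6 of 34 members. On FGFR3Act against FGFR3KO, 12 of 26 mitotic genes and 9 of 34 members did. Among genes with a promoter window, 1 of 30 mitotic genes (3.33%) held an E2F match, against 16 of 43 members. The mitotic share was near the 2.12% of all genes and 3.78% of genes on the array.

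**Figure D5:**
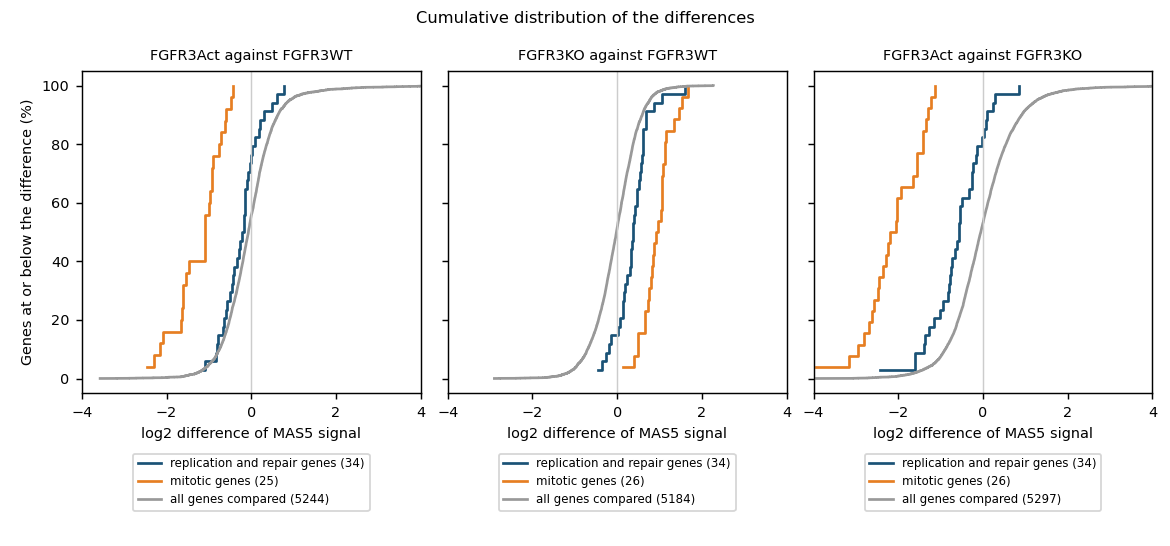
Cumulative share of genes (vertical axis, percent) at or below a log2 difference of MAS5 signal (horizontal axis, drawn from -4 to 4) in the 3 pairs of arrays. The curve of the 34 members lies between that of all genes and that of the mitotic genes over most of its length, left of all genes on FGFR3Act and right of them on FGFR3KO against FGFR3WT.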

How the data were processed

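RNA of cultured dermal fibroblasts was measured on Affymetrix arrays, 1 column per genotype. The deposited intensity values are linear signals, 1 per probe set, made with MAS5 per the submitters' processing notes. The sources used here state no version, scaling target or detection calls. The number of arrays limits the precision, and no error between replicates could be computed. Of 9889 probe sets, 18 were controls, and GEO's platform annotation gave 9053 a single symbol and 323 several. Symbols were updated by gene identifier through RefSeq (assembly GRCm38.p6), with 9041 matched. Signals were raised to the floor before log2 was taken, and no scaling was added. A pair of arrays was compared for genes that exceeded the floor in either, and "at least" marks folds in which the dimmer signal was below it. Counts at 1.5-fold describe size and are no test. No other per-sample columns were found. Named were the members, except 1 repair gene, and genes among the up to 2 per pair and direction with the largest difference, at 1.5-fold or more, of each list of related genes. Members and lists were chosen with earlier results of these data known. Promoter windows and sequences are RefSeq's, some genes and probe sets were not analysed here, and that repair gene's single values are not reported here. The alternatives were 3 scalings, 2 floors, an offset of 12, 2 filters and 2 rules for probe sets, run in Python 3.11.15 and, for cyclic loess, limma 3.58.1. The rule that left out probe sets with the suffix s or x kept those with f, as for Hat1, Parp1, E2f8, Adk and Dck, or r, as for Pold2. The arithmetic was tested on simulated data.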

Additional observations from a re-analysis of the deposited data

How the results depend on the processing

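Every median over the members kept its direction under the 10 alternatives, between -0.28 and -0.15 for FGFR3Act against FGFR3WT, 0.31 and 0.43 for FGFR3KO against FGFR3WT, and -0.67 and -0.33 for FGFR3Act against FGFR3KO. The last value, -0.33, came with no filter, where members below the floor on both arrays count as 0. Cyclic loess turned the split of all genes at 1.5-fold on FGFR3Act against FGFR3WT to 710 higher and 662 lower, against 596 and 856. Counts of members at 1.5-fold moved with the floor. With the floor at the 60th percentile, 3 of 14 members were lower on FGFR3Act than on FGFR3WT, 5 of 20 higher on FGFR3KO than on FGFR3WT and 7 of 20 lower on FGFR3Act than on FGFR3KO, against 14.2%, 8.19% and 18.4% of all genes in the pair's direction. With it at the 20th percentile, 14 of 41 were lower on FGFR3Act than on FGFR3WT, against 17.5% of all genes. The other 55 of 60 values stayed within 1.5 times the main one. The chromatin-copying median on FGFR3Act against FGFR3WT turned to 0.0146 after quantile normalisation and 0.0244 after cyclic loess. For the medians by role, 131 of 149 values stayed within that range and 16 moved by more, 2 of them to 0, both with no filter for chromatin copying, on FGFR3Act against FGFR3WT and against FGFR3KO. Of single members, Rfc1, Blm and Dnmt1 changed sign on FGFR3Act against FGFR3WT under some alternative, Lig1 on FGFR3KO against FGFR3WT and Rfc1 on FGFR3Act against FGFR3KO. The causes were not tested. Signal over background limits the 8 members below the floor. No paired analysis was possible because each group has 1 column.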
